A study of Mus musculus with 16 samples.

Results

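Neurog1, Neurog2, Neurod1, Neurod4, Neurod6, Atoh1, Ptf1a, Olig1 and Olig2 encode basic helix-loop-helix (bHLH) transcription factors of the developing nervous system. These 9 genes, of the 24982 listed in the count table, were chosen by name as the proneural and Olig factors, and all 9 had counts and were tested. They were followed in 16 mouse rhabdoid tumors, each from a different Smarcb1 flox/flox;R26-CreERT2 mouse, in which tamoxifen given during gestation activates a Cre recombinase in any cell type and deletes Smarcb1. The 5 tumors within the brain parenchyma (intra-CNS) are the tumors that the study calls Shh, all induced at E6 and collected at 30 to 180 days of age. The 11 tumors outside the parenchyma are its Myc tumors, of which 6 were intracranial and extra-CNS (4 induced at E8, 1 at E7 and 1 at E6, aged 52 to 170 days) and 5 were extracranial (4 given tamoxifen at E8 and 1 at E6, aged 80 to 210 days, from the back, jaw, nose and mouth). Subgroup and site coincide in every Shh tumor, so that the subgroup and the brain around the tumor cannot be told apart by comparing Shh with Myc tumors, and only 2 Myc tumors share the E6 induction of the Shh tumors. All tumors carried the same alleles, no normal tissue was analysed here, and tumors of the brain were macrodissected from frozen sections, so that the RNA can hold other cells than tumor cells. In such bulk RNA, fewer cells of a type and less RNA per cell cannot be told apart.

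Proneural bHLH factors bind DNA at E-boxes, short motifs written CANNTG, as dimers with a ubiquitous E-protein. They start neuronal differentiation in a progenitor and, through Notch ligands such as Dll1, hold back the neighbouring cells, in which Hes repressors keep proneural genes off. Neurog1 and Neurog2 act early in dividing progenitors, Neurod1, Neurod4 and Neurod6 act later in cells that leave the cycle and in young neurons, and Atoh1 and Ptf1a divide the dorsal hindbrain between excitatory and inhibitory lineages. Olig1 and Olig2 belong to the same protein family, and serve ventral progenitors and the oligodendrocyte lineage.

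The promoters of the members are shown because they are the DNA in which E-boxes, the motif that these factors themselves read, can be looked for. RefSeq promoters (GRCm38.p6, 250 bases before to 50 after the start) matched 8 of the 9 members by symbol, with 2 starts for Neurod4. The 4 members whose window holds a CANNTG on either strand are printed, together with Neurog2, the member of largest fold change, whose window holds none. Capitals mark the E-boxes, and each run reads 5′ to 3′ on the strand of the gene. Neurog2 lies at chr3:127632886-127633185 (+), Neurog1 at chr13:56252131-56252430 (-), Neurod1 at chr2:79456587-79456886 (-), the downstream start of Neurod4 at chr10:130280089-130280388 (-) and Neurod6 at chr6:55681214-55681513 (-).
Neurog2: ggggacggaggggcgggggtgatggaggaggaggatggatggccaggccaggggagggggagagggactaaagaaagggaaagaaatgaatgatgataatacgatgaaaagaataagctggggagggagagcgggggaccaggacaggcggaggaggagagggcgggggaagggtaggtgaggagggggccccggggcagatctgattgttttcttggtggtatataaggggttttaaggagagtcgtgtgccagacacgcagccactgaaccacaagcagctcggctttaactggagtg
Neurog1: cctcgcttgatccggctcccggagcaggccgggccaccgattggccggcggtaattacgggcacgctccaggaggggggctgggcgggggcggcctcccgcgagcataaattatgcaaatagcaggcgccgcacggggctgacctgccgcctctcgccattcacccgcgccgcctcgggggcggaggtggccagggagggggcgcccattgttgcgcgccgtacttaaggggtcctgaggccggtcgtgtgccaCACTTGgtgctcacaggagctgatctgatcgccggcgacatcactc
Neurod1: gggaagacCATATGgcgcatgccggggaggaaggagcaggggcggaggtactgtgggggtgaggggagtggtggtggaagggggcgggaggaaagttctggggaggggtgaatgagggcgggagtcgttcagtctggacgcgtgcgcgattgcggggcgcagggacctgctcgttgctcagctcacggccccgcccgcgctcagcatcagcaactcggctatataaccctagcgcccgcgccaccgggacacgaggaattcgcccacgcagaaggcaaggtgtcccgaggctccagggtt
Neurod4: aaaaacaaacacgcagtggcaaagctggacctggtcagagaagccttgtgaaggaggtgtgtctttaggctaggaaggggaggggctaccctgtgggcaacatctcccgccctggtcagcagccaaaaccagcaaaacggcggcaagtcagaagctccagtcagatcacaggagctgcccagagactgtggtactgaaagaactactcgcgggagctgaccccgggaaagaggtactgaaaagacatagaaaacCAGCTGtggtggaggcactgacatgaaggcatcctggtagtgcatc
Neurod6: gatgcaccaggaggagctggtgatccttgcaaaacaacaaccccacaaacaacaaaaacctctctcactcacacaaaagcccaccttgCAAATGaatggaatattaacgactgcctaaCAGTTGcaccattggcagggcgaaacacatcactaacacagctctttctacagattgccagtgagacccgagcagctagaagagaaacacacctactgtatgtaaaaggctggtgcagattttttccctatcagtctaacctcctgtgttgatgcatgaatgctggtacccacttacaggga
The E-box of Neurod1 (CATATG) begins 242 bases before the start, those of Neurod6 begin 162 (CAAATG) and 132 (CAGTTG) bases before it, and those of Neurod4 (CAGCTG) and Neurog1 (CACTTG) begin at base 5 of the transcript. A CANNTG was present in 72.3% of the 32544 distinct promoter windows of the table, and CAGCTG, a form of it, in 16.4%. The windows of Atoh1, Ptf1a and Olig2 and the upstream Neurod4 window held none. A match is a description of these windows only, and these libraries measured no binding.

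In mm10 coordinates (GENCODE M21), the members are short genes of 1 or 2 exons. Olig2 (chr16:91225457-91228677) and Olig1 (chr16:91269772-91271933) are neighbours on the plus strand, 41095 bases apart. The exons of Ptf1a (chr2:19445663-19447501, plus strand) share 40.4% of their bases with the antisense gene Ptf1aos, which had at most 1 count in any tumor. Those of Neurod1 (chr2:79452521-79456751, minus strand) share 7.37% with Cerkl on the same strand, which was fitted in the opposite direction (log2 fold change of -1.80).

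Libraries held 17889968 to 110177889 counts, in which a count of 3, taken as the floor, corresponds to 0.0272 to 0.168 CPM (counts scaled to the library total). Levels are given as TPM (a transcript measure that corrects for gene length and depth), and fold changes come from edgeR on the counts, Shh against all 11 Myc tumors, and a gene was called when its adjusted p was under 0.05 and its log2 fold change exceeded 1 in size. Smarcb1, the deleted gene, had 3.99 to 58.1 TPM in Shh tumors (median 7.08) and 6.48 to 43.7 TPM in Myc tumors (median 12.2), highest in the Shh tumor 29048 and the Myc tumor R26P115, and the groups overlapped. Its log2 fold change was -0.59 ± 0.63 (SE, edgeR adjusted p = 0.480), and without 29048 it was -1.97 (adjusted p = 0.0147). The tumor 29048 also stood apart in markers of mature brain cells: its 8 mature oligodendrocyte markers summed to 6768 TPM against 48.9 to 178 TPM in the other 4 Shh tumors, and its 7 excitatory neuron markers to 3343 TPM against 202 to 1114 TPM. Results that rest on 29048 are therefore given with and without it.

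All 9 members rose in Shh tumors in edgeR, with log2 fold changes from 4.32 to 9.80 (median 6.01). Over the 21854 genes tested, 12.9% were called higher in Shh tumors and 13.1% lower, and the median log2 fold change was -0.15. The members had at least 1 TPM in 37 of 45 values in Shh tumors, in 4 of 54 in intracranial Myc tumors and in 0 of 45 in extracranial Myc tumors. Summed over the members, TPM ran from 46.4 to 299 in Shh tumors and from 0.0593 to 3.77 in Myc tumors. For 8 of the 9 members, every Shh tumor was above every Myc tumor in TPM, as was so for 12.9% of the 21841 genes with TPM, and Neurod4 was the exception.

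Markers of other cell types moved in the same comparison. Of the brain cell lists, 5 of 8 mature oligodendrocyte, 2 of 6 astrocyte (Slc1a2 at 5.37 and Slc1a3 at 2.94 on the log2 scale), 4 of 7 excitatory neuron and 4 of 6 granule neuron markers were higher in Shh tumors. The astrocyte markers summed to 174 to 2057 TPM in Shh tumors (174 to 968 TPM without 29048) and to at most 589 TPM in Myc tumors, which overlapped. Of the microglia markers, 2 of 5 were lower (Csf1r at -2.24 and Aif1 at -1.97), with sums of 156 to 271 TPM in Shh, 98.0 to 790 TPM in intracranial and 439 to 1007 TPM in extracranial Myc tumors. Of the skeletal muscle markers, 3 of 5 were lower (median log2 fold change of -6.01), with sums of 2.21 to 7.03, 3.30 to 80.1 and 12.8 to 605 TPM in the same order. Of the others, 1 of 6 olfactory epithelium and 1 of 6 sensory ganglion markers were higher, 1 of 5 Schwann cell markers was higher and 1 lower, and none of the pituitary or of the retina and pineal markers was called. The higher Schwann cell marker is Mbp, which stands on the oligodendrocyte list as well. Without 29048, 0 oligodendrocyte, 1 astrocyte, 3 excitatory neuron, 4 granule neuron, 0 sensory ganglion, 0 olfactory and 0 Schwann cell markers were higher, and 2 microglia, 3 muscle and 1 Schwann cell markers lower. The 6 pituitary markers summed to 424 TPM in 43989C and 332 TPM in R26P170, both intracranial Myc tumors, and to at most 16.6 TPM in any other tumor. Without 29050A, 2 granule neuron and 2 muscle markers were called, and the muscle count ran from 2 to 4 over single tumors left out. The genes in brackets were named after their values were seen. The part of these cells in the levels of the members was not tested.

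**Figure D1:**
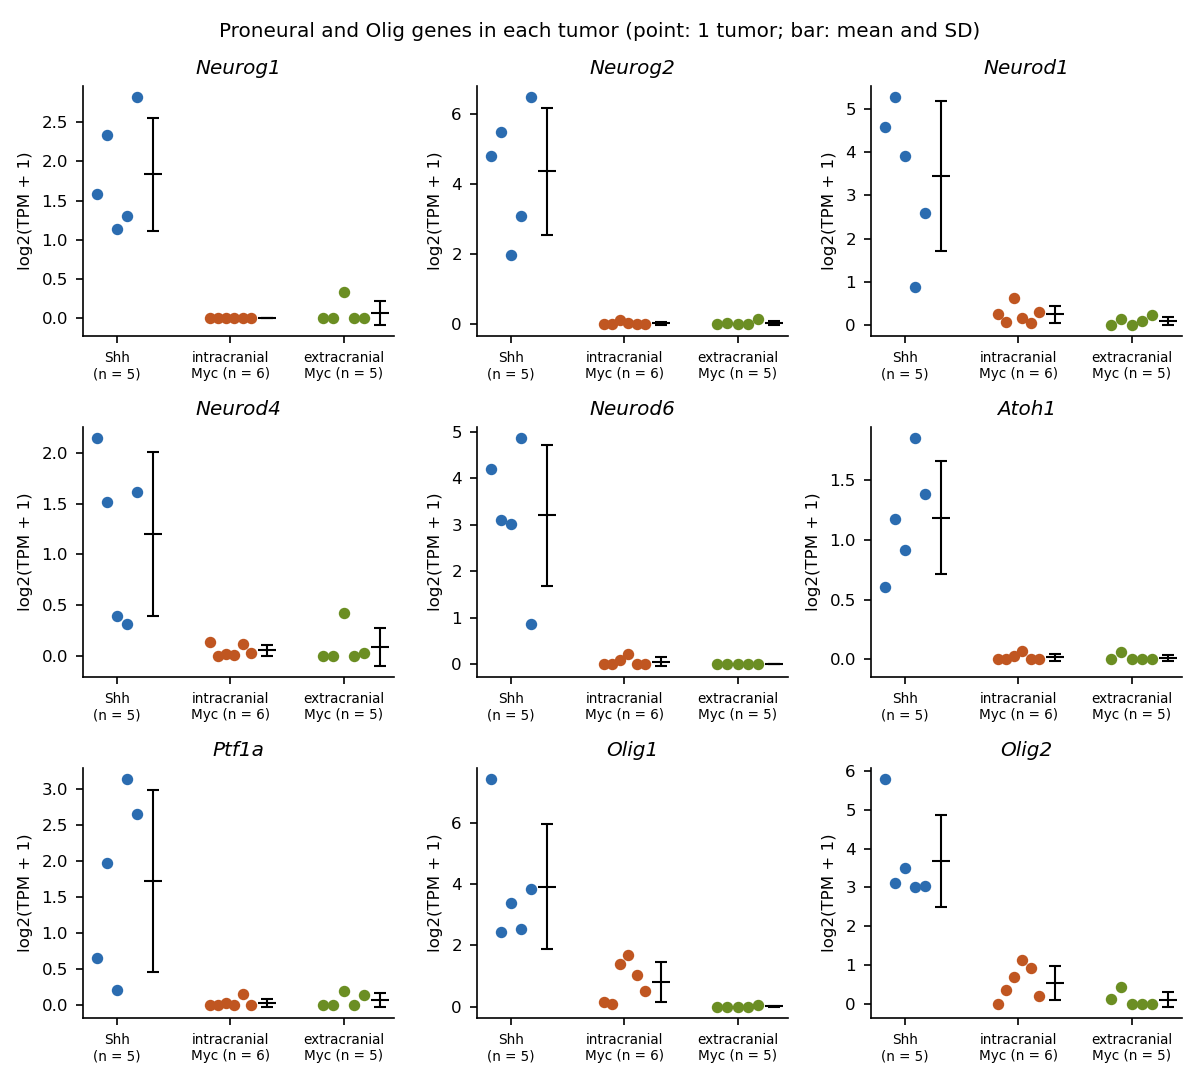
Level of each member in each tumor, as log2(TPM + 1), in Shh (n = 5), intracranial Myc (n = 6) and extracranial Myc (n = 5) tumors. Each point is 1 tumor, bars give the mean and SD, and the vertical scale differs between panels. Shh tumors lie above all Myc tumors in every panel except that of Neurod4, where 1 extracranial tumor reaches 0.341 TPM.

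Neurog2, which commits cortical and spinal progenitors to a neuronal fate, was the member of largest fold change. It had 27.1 TPM in 29048, 43.5 TPM in 38594A, 2.93 TPM in 29050A, 7.52 TPM in R26P98 and 87.8 TPM in R26P87. Among Myc tumors it had 1 to 8 counts in 4 tumors and none in the other 7, with a highest value of 0.0958 TPM. Shh tumors thus spanned a 30.0-fold range, and their lowest, 29050A, was still far above the highest Myc tumor. In edgeR it was higher by 9.80 ± 0.94 on the log2 scale (SE, adjusted p = 4.72e-06), and this difference stayed between 9.09 and 10.30 when any single tumor was left out.

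Neurog1, the close relative that acts in sensory ganglia and in the dorsal neural tube, was lower than Neurog2 in each Shh tumor. It had 1.99 TPM in 29048, 4.06 TPM in 38594A, 1.19 TPM in 29050A, 1.46 TPM in R26P98 and 6.04 TPM in R26P87. All 6 intracranial Myc tumors and 4 of the 5 extracranial ones had no count, and the tumor of the nose, 43990A, had 6 counts (0.263 TPM). The log2 fold change was 6.25 ± 1.11 (SE, adjusted p = 0.000505). Without 43990A no Myc tumor had a count, so that the fitted 8.96 (adjusted p = 0.000371) depends on the prior count and is no bound. The TPM of Neurog2 exceeded that of Neurog1 by a ratio of 2.45 (29050A) to 14.5 (R26P87). The Shh tumors with the most Neurog2, R26P87 and 38594A, were also those with the most Neurog1.

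Neurod1, which drives the differentiation of granule neurons and of endocrine cells, had 23.0 TPM in 29048, 37.8 TPM in 38594A, 14.2 TPM in 29050A, 0.844 TPM in R26P98 and 5.01 TPM in R26P87. It was the member most often above the floor in Myc tumors beside Olig2, in 6 of 11, with 0.525 TPM in 29941C, the deepest library, as the highest. R26P98 was the lowest Shh tumor and came near that Myc tumor, yet the groups did not overlap. Its log2 fold change was 6.33 ± 0.90 (SE, adjusted p = 9.38e-05).

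Neurod4, which acts in the same step as Neurod1 in the midbrain and retina, was the exception among the members. It had 3.41 TPM in 29048, 1.86 TPM in 38594A and 2.07 TPM in R26P87, and only 0.311 TPM in 29050A and 0.244 TPM in R26P98. The extracranial tumor 43990A had 0.341 TPM (17 counts), above those last 2 Shh tumors, and the other 10 Myc tumors had at most 0.10 TPM. Its log2 fold change was 4.32 ± 1.04 (SE, adjusted p = 0.00460), the smallest of the members, and 5.38 without 43990A. Against the 5 extracranial Myc tumors alone it missed the threshold (3.98, adjusted p = 0.0626), and over single tumors left out of the full comparison the adjusted p ran from 0.000588 to 0.0156. The labels place 43990A in the nose. Its 6 olfactory epithelium markers summed to 9.57 TPM, with 2 of them at 0, against up to 140 TPM in the other extracranial tumors. Of those 140 TPM, in the mouth tumor 43998A, 138 TPM came from Adcy3 alone. No other marker of the list exceeded 4.72 TPM (Omp) in an extracranial tumor. The part of such cells in the Neurod4 of 43990A was not tested.

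Neurod6, a factor of postmitotic excitatory neurons of the forebrain, had 17.2 TPM in 29048, 7.56 TPM in 38594A, 7.08 TPM in 29050A, 27.9 TPM in R26P98 and 0.822 TPM in R26P87. No extracranial Myc tumor had a count, and 2 intracranial ones had 6 and 10 counts, with 0.169 TPM in 29225D as the highest. R26P87, the Shh tumor with the most Neurog2, had the least Neurod6, and its 16 counts still lay above all Myc tumors. Neurod6 had a log2 fold change of 8.18 ± 1.08 (SE, adjusted p = 5.25e-05), and of 9.27 without 29225D. The summed excitatory neuron markers ran from 202 to 3343 TPM in Shh tumors and from 12.4 to 270 TPM in Myc tumors, lowest among Shh tumors in R26P87 as for Neurod6, while R26P98, the highest in Neurod6, had 347 TPM. The part of these markers in the level of Neurod6 was not tested.

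Atoh1, which specifies granule neuron precursors and hair cells, was a low gene in every tumor. It had 0.521 TPM in 29048, 1.25 TPM in 38594A, 0.883 TPM in 29050A, 2.61 TPM in R26P98 and 1.62 TPM in R26P87, from 13 to 50 counts. In Myc tumors it had 7 counts in all, at most 3 in one tumor, and its highest value was 0.0516 TPM. The Shh tumors spanned a 5.02-fold range, the narrowest of the members. The log2 fold change was 5.86 ± 0.78 (SE, adjusted p = 5.34e-05). Every Myc tumor lay at or under the floor, so that this fold is bounded only from below. The mean CPM of Shh tumors (1.09) was 11.1 times the mean floor of the Myc libraries (0.0983 CPM). The 6 cerebellar granule neuron markers summed to 262 to 619 TPM in Shh tumors and 3.41 to 163 TPM in Myc tumors, without overlap, and 4 of 6 rose. Zic1 (154 to 439 TPM in Shh tumors) gave the most and was not called, Cbln1, Cbln3 and Etv1 were called, and Gabra6, called as well, had 14.3 TPM in 29050A and at most 0.159 TPM in any other tumor. The part of these cells in the level of Atoh1 was not tested.

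Ptf1a, which directs progenitors to inhibitory neurons in the cerebellum and to acinar cells in the pancreas, had 0.563 TPM in 29048, 2.94 TPM in 38594A, 0.155 TPM in 29050A, 7.79 TPM in R26P98 and 5.28 TPM in R26P87. In Myc tumors it had 8 counts in all, at most 3 in one tumor, with 0.145 TPM in 43990A as the highest. The lowest Shh tumor (6 counts) and this Myc tumor (3 counts) were separated by less than their depth can resolve. The log2 fold change was 6.01 ± 1.04 (SE, adjusted p = 0.000405), or 5.41 without R26P98, and the Shh tumors spanned a 50.2-fold range, the widest of the members. As for Atoh1, every Myc tumor lay at or under the floor, so that the fold is bounded only from below. The mean CPM of Shh tumors (1.88) was 19.1 times the mean floor of the Myc libraries (0.0983 CPM). R26P98, R26P87 and 38594A were the 3 highest Shh tumors for both Ptf1a and Atoh1.

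Olig2, which maintains ventral progenitors and oligodendrocyte precursors, had 54.1 TPM in 29048 and a narrow 7.09 to 10.3 TPM in the other 4 Shh tumors. Olig1, which promotes the maturation of oligodendrocytes, had 171 TPM in 29048, 4.41 TPM in 38594A, 9.43 TPM in 29050A, 4.85 TPM in R26P98 and 13.2 TPM in R26P87. Both were highest in 29048, the tumor with the most mature oligodendrocyte markers, and the part of those cells in the level was not tested. Among Myc tumors, Olig1 reached 2.22 TPM and Olig2 1.18 TPM, both in the intracranial tumor 29225D, below every Shh tumor. The log2 fold change of Olig2 was 5.20 ± 1.08 (SE, adjusted p = 0.00161) and that of Olig1 was 5.81 ± 1.33 (SE, adjusted p = 0.00336). Without 29048, Olig2 stood at 4.11 (adjusted p = 0.0104) and Olig1 at 3.48 (adjusted p = 0.0499), and over any single tumor left out the adjusted p of Olig1 ran from 0.00285 to 0.0499. Without both 29048 and R26P115, an alternative chosen after seeing the data, Olig1 missed the threshold at 3.48 (adjusted p = 0.0518) and the other 8 members passed. In those 4 Shh tumors, the mature oligodendrocyte markers (48.9 to 178 TPM) overlapped those of the Myc tumors (43.4 to 146 TPM), and Olig1 and Olig2 did not. That list holds none of the oligodendrocyte precursor genes given below, and the part of precursors in Olig1 and Olig2 was not tested.

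**Figure D2:**
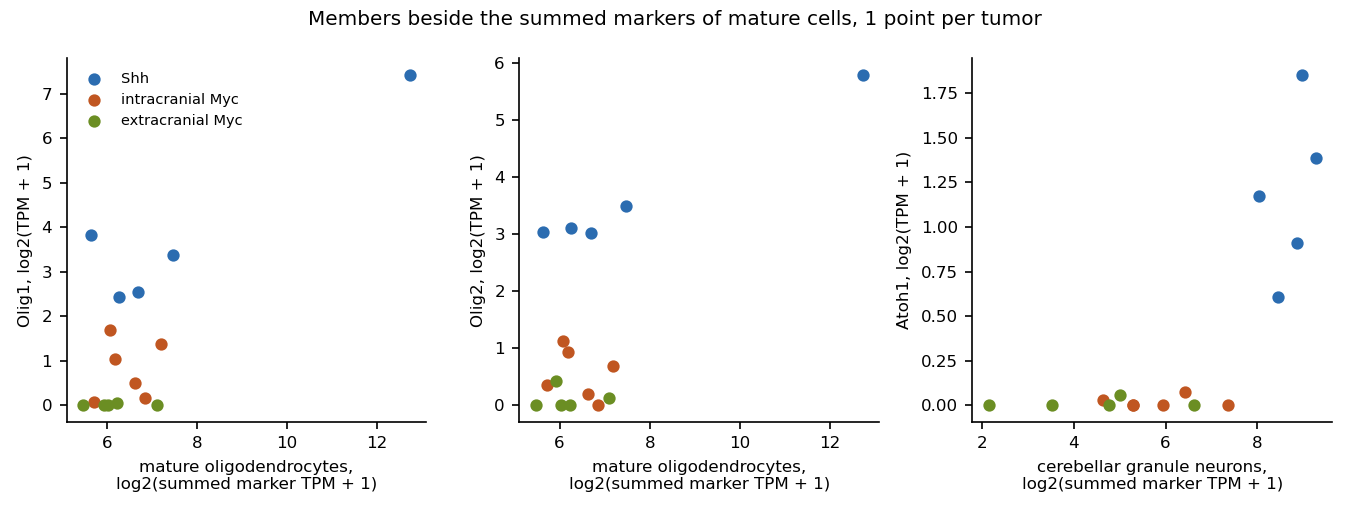
Olig1 and Olig2 against the summed TPM of 8 mature oligodendrocyte markers, and Atoh1 against that of 6 cerebellar granule neuron markers, on log2 axes with 1 added, 1 point per tumor. The Shh tumor 29048 stands alone at 6768 TPM of oligodendrocyte markers. The other 4 Shh tumors lie above the Myc tumors in Olig1 and Olig2 and overlap them in these markers, which hold no listed precursor gene.

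The 5 Shh tumors differed in which member was most abundant. Olig1 gave 57.2% of the summed member TPM in 29048, Neurog2 gave 39.2% in 38594A and 68.1% in R26P87, Neurod1 gave 30.5% in 29050A, and Neurod6 gave 46.3% in R26P98. Early and late factors did not keep 1 ratio: the TPM of Neurog2 was 17.5 times that of Neurod1 in R26P87 and 0.206 times in 29050A. The ratio of Neurod1 to Neurod6 ran from 0.0302 in R26P98 to 6.09 in R26P87. With 1 library per tumor, the spread between tumors of a group has no technical replicate beside it.

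**Figure D3:**
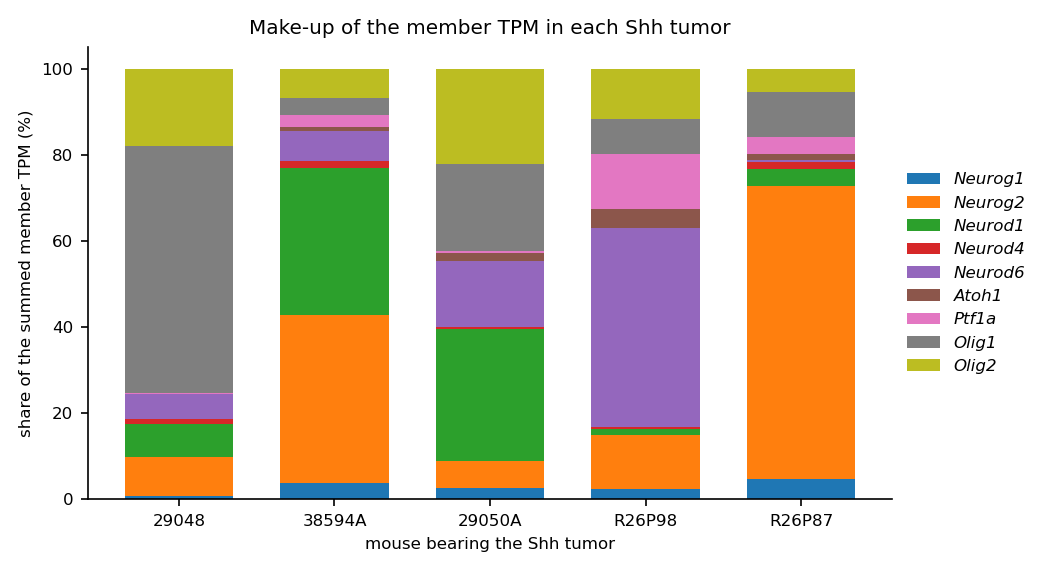
Share of the summed TPM of the 9 members that each contributes, in percent, in each of the 5 Shh tumors. The leading member is Neurog2 in 2 tumors and differs among the other 3, with Neurog2 at 68.1% in R26P87 and Olig1 at 57.2% in 29048.

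Within the Myc tumors, the 6 intracranial and 5 extracranial tumors were compared in a fit of their own. No member passed the threshold in edgeR (0 of 9), where 0.0047% of the 21261 genes tested were called, a single gene, Ttc39aos1. At an unadjusted p under 0.05 in edgeR were 2 of the 9 members and 2606 of the 21261 genes. The median log2 fold change was 0.42 over the members and 0.02 over all genes. The member of largest difference was Olig1, which had 0.112 TPM in 43989C, 0.0526 TPM in 43992A, 1.61 TPM in 29941C, 2.22 TPM in 29225D, 1.06 TPM in R26P170 and 0.419 TPM in R26P115, and 1 count in R26P123 (0.0327 TPM) and none in the other 4 extracranial tumors. Its log2 fold change, intracranial minus extracranial, was 6.54 ± 1.34 (SE, adjusted p = 0.345). Every intracranial tumor was above every extracranial one, as was so for 0.513% of genes, but 2 of those tumors had 1 or 2 counts, which does not exceed the floor. DESeq2 called Olig1 (6.66, adjusted p = 0.000258), alone among the 4 members to which it gave an adjusted p, and 1.46% of genes higher at that site. The other settings gave adjusted p-values of 0.289 to 0.827 for Olig1. Olig2 ran from 0 to 1.18 TPM in intracranial and from 0 to 0.349 TPM in extracranial Myc tumors, which overlapped, with a log2 fold change of 2.45 ± 1.39 (SE, adjusted p = 0.484). Neurog1 had no count in intracranial and Neurod6 none in extracranial Myc tumors, so that no fold is given for them (adjusted p = 0.429 and 0.390). The 6 astrocyte markers summed to 12.5 to 589 TPM in intracranial (median 158) and 39.8 to 465 TPM in extracranial Myc tumors (median 191), which overlapped, and 29225D, the tumor highest in Olig1 and Olig2, had the 589 TPM. Within these sums, Gja1 alone ran from 27.7 to 445 TPM in extracranial Myc tumors (median 185) and from 9.20 to 357 TPM in intracranial ones (median 55.0). None of the 6 was called between the sites. Of the 6, Gfap (0.674 to 164 against at most 0.109 TPM) and Aqp4 (0.0190 to 27.3 against at most 0.0123 TPM, with 3 of the extracranial tumors at 0) did not overlap between the sites, and the other 4 did. The part of these cells in Olig1 and Olig2 was not tested. The tumors with pituitary markers, 43989C and R26P170, had the highest Neurod4 of the intracranial Myc tumors, from 3 and 4 counts (0.10 and 0.0873 TPM), and the part of pituitary cells in it was not tested. Besides the nose of its label, another listing places 43990A inside the skull. Counted there, no member was called, Neurod4 turned from -0.80 to 3.61 (adjusted p = 0.391), and the 6 counts of Neurog1 would be intracranial with none extracranial. The separation of the sites in Olig1 (0 counts in 43990A), Gfap and Aqp4 is then lost.

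**Figure D4:**
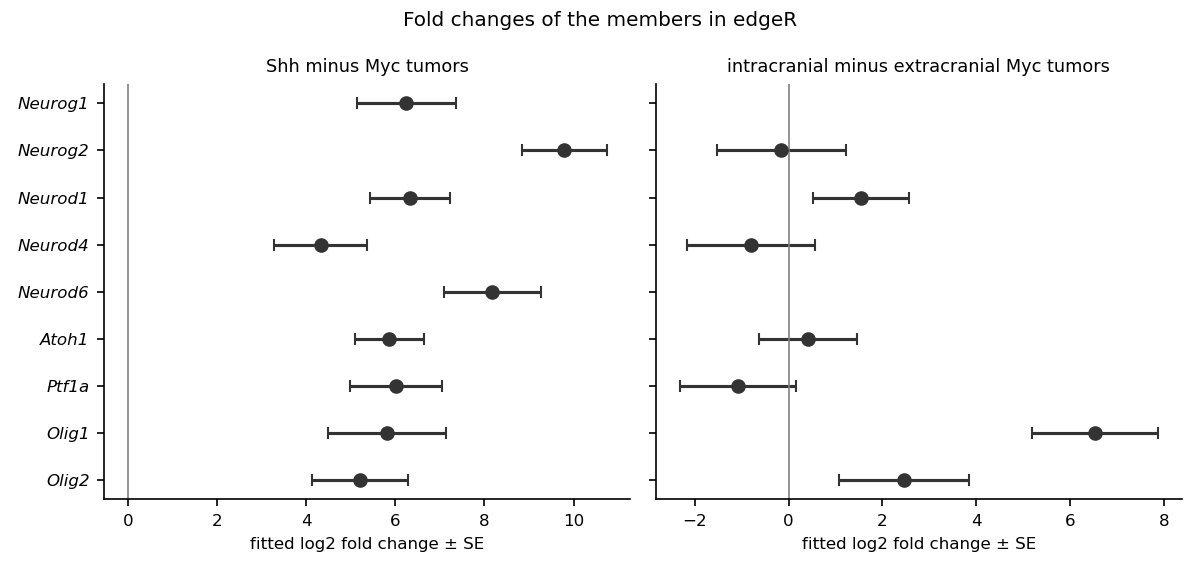
Fitted log2 fold change of each member in edgeR, with its SE, for Shh minus Myc tumors (left, 5 against 11) and intracranial minus extracranial Myc tumors (right, 6 against 5). All members lie between 4.32 and 9.80 on the left, and none passes the threshold on the right, where Neurog1 and Neurod6 are left out because 1 site had no count. For Atoh1 and Ptf1a every Myc tumor lay at or under the floor, so that their folds on the left are bounded only from below.

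The difference from Myc tumors was also computed at each site. Against the intracranial Myc tumors alone, all 9 members passed the threshold, with adjusted p-values from 0.000316 (Neurog2) to 0.0120 (Olig1), where 11% of the 21418 genes tested (2365) were called higher in Shh tumors. Against the extracranial ones alone, with 43990A among them, 8 passed and Neurod4 did not, beside 13.5% of genes. Among tumors induced at E6 alone (5 Shh against 2 Myc), 5 members passed, namely Neurog1, Neurog2, Neurod1, Neurod6 and Atoh1, beside 6.29% of genes. The other 4 had log2 fold changes of 4.46 for Neurod4, 5.62 for Olig1, 4.50 for Olig2 and 5.23 for Ptf1a (adjusted p = 0.105, 0.144, 0.0671 and 0.116). In the 2 Myc tumors, 43825B and R26P170, Neurog1, Neurog2, Neurod6 and Atoh1 had no count and Neurod1 had at most 1. The 4 members that missed had 2 to 29 counts in R26P170. The passes thus rest on a Myc side of 2 libraries with almost no count, where the size of the fold depends on the prior count. Among numbered mice, 9 passed, beside 14.2% of genes. Among mice named R26P (2 Shh against 3 Myc) no gene of 20347 passed in edgeR, with 3514 at an unadjusted p under 0.05. Each member had a positive log2 fold change there, from 3.55 (Olig1) to 11.1 (Neurod6). Neurog1, Neurod6 and Atoh1 had no count in those 3 Myc tumors, so that their folds depend on the prior count and are no bound. The name schemes were taken from the mouse names and the labels give no sequencing batch.

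Partners, inhibitors and targets of these factors were examined through 9 lists with 59 genes, of which 33 rose and 3 fell in Shh tumors, where 12.9% of all genes tested were called higher and 13.1% lower. The lists were chosen with earlier results of these data known, so that their counts, here and below, are a description and no test against those shares. Of the E-proteins, the obligate partners, 0 of 3 passed the threshold. Tcf3 had a log2 fold change of 0.34 ± 0.29, Tcf4 of 1.10 ± 0.55 and Tcf12 of 0.85 ± 0.31 (SE, adjusted p = 0.374, 0.132 and 0.0469), and all were well detected in both groups, with medians of 120, 180 and 248 TPM in Shh and 65.2, 36.5 and 71.3 TPM in Myc tumors. Tcf12 lay under the fold limit, and it passed without 29048 (1.05) or R26P170 (1.04), as Tcf4 did without 43990A (1.49). On log2(TPM + 1), limma called Tcf4 (2.09) and Tcf12 (1.40) higher.

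Of the Id proteins, which hold E-proteins away from DNA, 1 of 4 rose. Id4, known from neural progenitors, had 46.8 to 576 TPM in Shh tumors and 0.551 to 71.0 TPM in Myc tumors, which overlapped only through R26P87 and R26P115, with a log2 fold change of 4.05 ± 0.98 (SE, adjusted p = 0.00476). Id1 (-1.63, adjusted p = 0.0929), Id2 (-0.48, adjusted p = 0.406) and Id3 (-0.56, adjusted p = 0.350) did not pass the threshold in edgeR, and DESeq2 called Id1 lower (-1.59, adjusted p = 0.0366). Id3 was abundant on both sides, with a median of 647 TPM in Shh and 735 TPM in Myc tumors.

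Of the Hes and Hey repressors, the effectors of Notch, 4 of 7 rose (median log2 fold change of the list 1.47). The count was 5 in DESeq2, 6 with limma on log2(TPM + 1), 7 with limma on log2(TPM + 0.1), 6 in edgeR without R26P115 and 2 among E6 tumors. DESeq2 gave no p for Hes3 and so could not call it. Hes5, the Notch target of neural progenitors, had 46.5 TPM in 29048, 85.4 TPM in 38594A, 159 TPM in 29050A, 125 TPM in R26P98 and 81.4 TPM in R26P87, against no count in all intracranial and at most 0.116 TPM in extracranial Myc tumors. Its log2 fold change, 11.52 ± 0.75 (SE, adjusted p = 1.58e-07), was above that of any member. Hes3, a repressor of early neural progenitors, had 121 TPM in R26P87 and 1.76 to 5.03 TPM in the other 4 Shh tumors (log2 fold change of 6.32 ± 1.24, adjusted p = 0.00107). It stood at 3.18 without R26P87 (adjusted p = 0.0311), and it missed the threshold among numbered mice alone (2.99, adjusted p = 0.0902) and among E6 tumors (7.56, adjusted p = 0.116). Hes1 (1.47) and Hes6 (2.21), named after their values were seen, also rose.

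Of the other neural bHLH factors, 10 of 11 were called higher in Shh tumors, with a median log2 fold change of 4.46, and 6 among E6 tumors. Nhlh2 and Nhlh1, factors of newly born neurons, were highest among those with a mean count of at least 50. Nhlh2 had 0.463 to 18.9 TPM in Shh tumors and at most 0.0362 TPM in Myc tumors (9.97 ± 1.06, adjusted p = 1.01e-05). Nhlh1 had 1.22 to 19.6 TPM in Shh tumors and at most 0.0919 TPM in Myc tumors (7.21 ± 0.79, adjusted p = 1.24e-05). Olig3, a relative of Olig1 and Olig2 in dorsal progenitors and picked after its values were seen, had 20.1 to 114 TPM in Shh tumors and 17.4 TPM in 29225D, against at most 0.353 TPM in the other Myc tumors (4.27 ± 1.55, adjusted p = 0.0439). Its call was lost in 14 of the 16 fits that left out a single tumor (adjusted p up to 0.122) and kept without R26P115 or without 29225D, where it stood at 8.10. Atoh8, the gene of the list that was not called, had a log2 fold change near 0 (0.36, adjusted p = 0.759).

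Of 16 genes known to follow proneural factors, 10 rose (median log2 fold change 4.64) and 6 did not pass. Dcx, a microtubule protein of migrating neurons, had 2.29 to 37.9 TPM in Shh tumors and at most 0.155 TPM in Myc tumors (7.77 ± 0.80, adjusted p = 7.75e-06). Elavl4, an RNA-binding protein of neurons, had 33.9 to 159 TPM in Shh tumors and at most 1.31 TPM in Myc tumors (7.32 ± 0.69, adjusted p = 3.65e-06). The Notch ligands Dll1 (4.95) and Dll3 (7.02) rose and Dll4 did not pass (0.66, adjusted p = 0.181), all 3 picked after their values were seen. Of 5 genes known to follow Atoh1 (median log2 fold change 1.92), Barhl1 (2.49, adjusted p = 0.0324) and Barhl2 (5.40, adjusted p = 0.000672) rose and Gfi1 (-3.48, adjusted p = 0.0208) fell, all with mean counts under 50 and named after their values were seen. Barhl1 was not called without 29048, 38594A or R26P87, nor Gfi1 without 29048 (adjusted p up to 0.0781 for Barhl1). The 2 higher genes of this list became 3 without 29941C, 4 against extracranial Myc tumors alone, and 1 or 3 with limma at a pseudocount of 1 or 0.1.

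Of 6 genes known to follow or partner Ptf1a, 3 rose and 1 fell (median log2 fold change 2.68), against 1 and 1 among E6 tumors. Kirrel2 had 2.27 to 23.7 TPM in Shh tumors and at most 0.261 TPM in Myc tumors (7.38 ± 1.16, adjusted p = 0.000204), and Lhx1, of inhibitory neuron precursors, 1.33 to 27.4 TPM and at most 0.530 TPM (6.38 ± 1.22, adjusted p = 0.000899), though Lhx1 missed the threshold among E6 tumors (4.23, adjusted p = 0.111). Lhx5, named after its values were seen, also rose (4.50, adjusted p = 0.00388). Rbpj, which binds Ptf1a in its complex and is the DNA-binding partner of Notch, fell by 2.18 ± 0.43 on the log2 scale (adjusted p = 0.00111), with 28.0 to 64.9 TPM in Shh and 27.4 to 225 TPM in Myc tumors, of which R26P115 and 43990A lay below the highest Shh tumor.

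Of 6 oligodendrocyte precursor genes, 3 rose and 1 fell (median log2 fold change 3.66), against 2 and 0 without 29048, 1 and 1 in DESeq2 and 0 and 0 among E6 tumors. DESeq2 gave no p for Gpr17 and Bcas1, with fitted log2 fold changes of 6.92 and 4.54, so that it could not call them. Gpr17 had 59.8 TPM in 29048 and 0.299 to 2.68 TPM in the other 4 Shh tumors, against at most 0.328 TPM in Myc tumors (6.77 ± 1.37, adjusted p = 0.00135). It stood at 3.45 without 29048 (adjusted p = 0.0384) and missed the threshold among E6 tumors (7.2, adjusted p = 0.142). Bcas1, of maturing oligodendrocytes, had 190 TPM in 29048 (3.94 ± 1.13, adjusted p = 0.0136) and did not pass without it (0.58, adjusted p = 0.669), among E6 tumors (4.80, adjusted p = 0.223) or against intracranial Myc tumors alone (3.19, adjusted p = 0.0888). Nkx2-2, named after its values were seen, also rose (4.59, adjusted p = 0.000782), with 0.574 to 9.02 TPM in Shh tumors against at most 0.471 TPM in Myc tumors. Pdgfra, a receptor that mesenchymal cells carry as well, fell (4.27 to 105 TPM in Shh and 25.2 to 384 TPM in Myc tumors, adjusted p = 0.0205), and missed the threshold without 29048 (adjusted p = 0.0516) or without 38594A (adjusted p = 0.0554), against extracranial Myc tumors alone (-1.87, adjusted p = 0.111), among numbered mice (-2.09, adjusted p = 0.110) and among E6 tumors (-2.22, adjusted p = 0.180). Rest, the repressor of neuronal genes outside the nervous system, did not pass (-0.79 ± 0.31, adjusted p = 0.0584), with medians of 12.7 TPM in Shh and 14.8 TPM in Myc tumors.

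**Figure D5:**
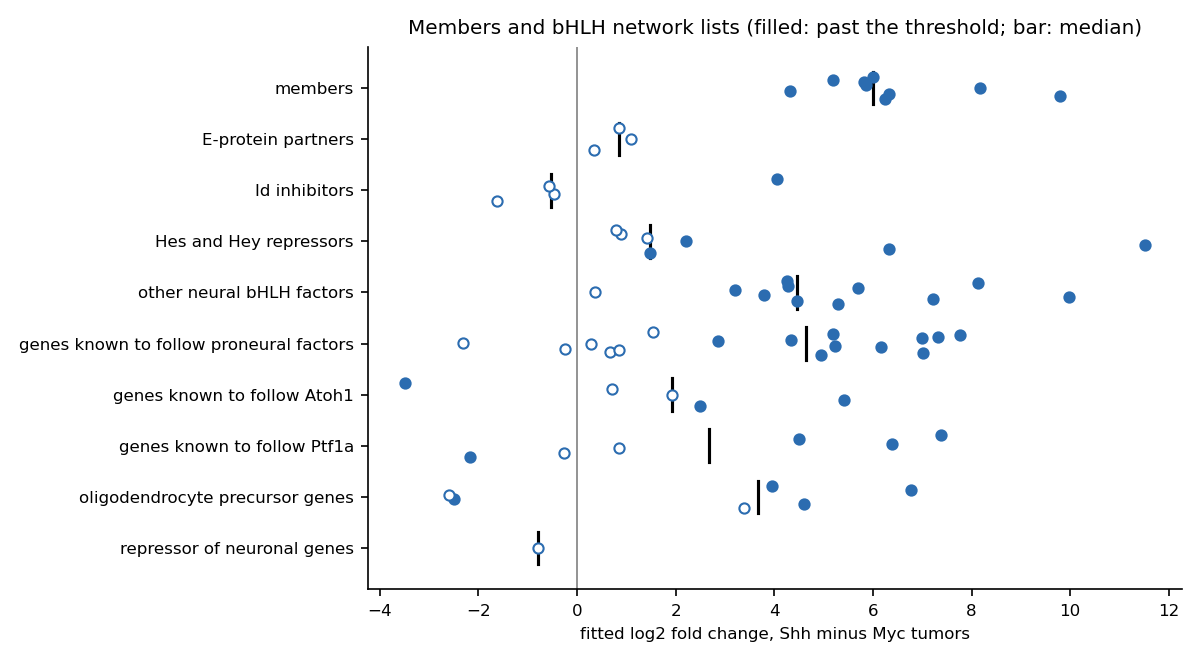
Fitted log2 fold change, Shh minus Myc tumors, of the 9 members and of each gene in 9 lists of partners, inhibitors and targets, 1 point per gene. Filled points passed the threshold, open points did not, and bars are medians. The medians are 6.01 for the members, 4.46 for other neural bHLH factors, 0.85 for the E-proteins and -0.52 for the Id proteins.

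The genes whose levels were most like those of a member were sought by the root mean square difference of log2(TPM + 1), each gene centred on its own mean, over the 16 tumors. The measure weighs a low gene little, and it was descriptive. Olig2 was the gene most like Olig1, at 0.55. Dcc, a netrin receptor, was nearest to Neurog2 at 0.60, Fbll1 to Neurod1 at 0.39 and Trh, the thyrotropin-releasing hormone gene, to Neurod6 at 0.30. Trh had 17.0 TPM in 29048, 13.3 TPM in 38594A, 11.8 TPM in 29050A, 18.3 TPM in R26P98 and 0.879 TPM in R26P87, low in the same Shh tumor as Neurod6, followed by Rorb at 0.40 and Kirrel2 at 0.48. For Neurog1 the nearest was Sub1 (0.23), for Neurod4 Kcnq3 (0.22), for Atoh1 Pbld1 (0.19), for Ptf1a Ism2 (0.32) and for Olig2 Syndig1l (0.45). For comparison, the SD over the tumors was 0.91 for Neurog1, 0.67 for Neurod4, 0.59 for Atoh1 and 1.69 for Olig2.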

How the data were processed

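RNA-seq of 16 tumors was analysed from 2 tables deposited by the authors. Libraries were stranded and paired-end, made from polyadenylated RNA, and per the submitters' processing notes reads were trimmed with Trim Galore and mapped to mm10 with STAR 2.5.3a. The gene annotation and the use of strand in counting are not given in the sources used here. The authors deposited raw counts for 24982 genes and TPM values for 24951 of them. Groups followed the tumor location in the labels, each tumor coming from 1 mouse. Genes with no count in the tumors compared were left out, and the remaining 21854 (21261 among Myc tumors) were tested with edgeR 4.0.16 (TMM, glmQLFit, glmQLFTest) under R 4.3.3. P-values were adjusted over all of them by the Benjamini-Hochberg method, and SE were derived from the fold change and its F statistic. DESeq2 1.42.0, limma 3.58.1 and the alternatives below were also run, and the code was tested on simulated counts. Tables and figures used pandas 2.3.3 and matplotlib 3.10.9. Members and lists were chosen with earlier results of these data known. Named genes were all members, E-proteins, Id genes and Rest, the 2 highest and 2 lowest calls of each other list among genes averaging 50 counts or more, and the 3 genes most like each member, of which the nearest are given.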

Additional observations from a re-analysis of the deposited data

Results flagged for a closer look

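In 19 groups of tumors in which a member had more than 3 counts somewhere, each group's highest and lowest log2(TPM + 1) were set against the rest with Dixon's criterion (a gap over the range above 0.710 for 5 tumors and 0.625 for 6), and 7 values stood apart. Chance flags about 1 in 20 groups of normally distributed values, a rate that does not hold for Myc groups in which most tumors had no or few counts and which were kept because 1 tumor had more than 3. In the Shh tumor 29048, Olig1 stood at 7.43 (others 2.44 to 3.83) and Olig2 at 5.78 (others 3.02 to 3.49), in the tumor that also stood apart in mature oligodendrocyte markers, whose part in these values was not tested. In the extracranial tumor 43990A, Neurog1 stood at 0.34 (6 counts) and Neurod4 at 0.42 (17 counts), with the other extracranial tumors at 0 for Neurog1 and at most 0.03 for Neurod4. Olig2 stood at 0.43 (19 counts) in the extracranial tumor 43987A, Neurog2 at 0.10 (8 counts) in the intracranial Myc tumor 29941C, the deepest library, and Neurod6 at 0.23 (10 counts) in the intracranial Myc tumor 29225D. The last 5 values are each under 20 counts.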

How the results depend on the processing

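No paired analysis was possible because no mouse had more than 1 tumor, the labels carry no shared replicate numbers, and replicates were numbered in accession order. The 5689 genes called between Shh and Myc tumors became 3533 among tumors induced at E6 and 0 among mice named R26P, and the members called went from 9 to 5 and 0. Every member kept a positive fold change between Shh and Myc tumors in every setting run, and with any single tumor left out 9 of 9 passed and 4766 to 6649 genes were called. Where no Myc tumor of a setting had a count, the size of that fold in edgeR depends on the prior count. DESeq2 gave neither a p nor an adjusted p for Olig1 and Olig2, with fitted log2 fold changes of 5.91 and 5.27, so that it called the other 7. The same held for Hes3, Gpr17 and Bcas1. For the E6 tumors Neurod4, Olig1, Olig2 and Ptf1a were those that missed. The filter on low counts removed Ptf1a. limma on log2(TPM + 1) called 4082 genes higher and 1324 lower, with + 0.1 it called 4956 and 1619, against 2829 and 2860 in edgeR. The median log2 fold change of all genes was -0.15 in edgeR, -0.03 in DESeq2 and 0.20 and 0.35 in limma, and every member lay above it in each. Bcas1 turned from 3.94 to -0.27 among mice named R26P. Between Myc sites, 1 gene was called in edgeR, 490 with DESeq2 (1 of them a member, Olig1), 2 with limma on log2(TPM + 0.1), 0 among E8 tumors and 0 among numbered mice, and 0 to 3 when single tumors were left out. The filter on low counts left no member to test there. With 43990A counted as intracranial, no member was called and Neurod4 turned from -0.80 to 3.61. Libraries are few, and under 20 counts a tumor's value is imprecise.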
